A study of Mus musculus with 2 samples.

Results

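Among the accessible regions of mouse erythroid progenitors, 2304 lay in 460 dense clusters of regions away from transcription starts. The measurement was ATAC-seq, in which the Tn5 transposase inserts sequencing adapters into DNA left open by nucleosomes. The cells were CFU-E, primary progenitors committed to the red cell lineage, from adult male C57BL/6J mice aged 5 to 6 weeks. The labels give 2 libraries of 50000 cells each, biological replicates 1 and 2, taken from separate biosamples that carry a single donor identifier. They form 1 group, so no comparison between conditions exists. The clusters come from the authors' list of peaks called on the pooled reads and thresholded on reproducibility.

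Overlapping records of that list were merged into 24394 regions, of which 12040 had a midpoint over 1 kb from every annotated transcript start and are called distal. Distal regions separated by gaps of 12.5 kb or less were joined into groups, and a group of 4 or more was kept as a cluster. The clustered regions made up 19.1% of distal regions (95% Wilson interval 18.4 to 19.8, counting error over regions only) and 9.44% of all regions. The members were chosen by the position of regions in the pooled list, and the clusters were ranked by number and summed fold, so these values are given as a description without a test. The fold of a region is the authors' ratio of its signal over background at its strongest peak.

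Distal accessible regions are where many enhancers lie. Enhancers are stretches of DNA that bind transcription factors and raise the activity of a gene that may be far away. Groups of enhancers packed close together are often found near genes that define a cell type, and the control region upstream of the beta-globin genes is the textbook example in red cells. In erythroid cells the zinc finger factor GATA1 binds GATA sequences, often with TAL1 at a neighbouring CTG, KLF1 binds CACCC-type sequences, and CTCF binds insulators and the anchors of chromatin loops. Accessibility alone shows neither which factor is bound nor which gene a region serves.

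The windows printed here surround the summit of the strongest region of leading clusters, 75 bp to each side, on GRCm38 (mm10). They were chosen to show the consensus sequences counted further on, and 1 window without any. Capitals mark matches on either strand. A GATA match is NGATAN with A or T at the first N and A or G at the last. A pair is a CTG lying 7 to 9 bases before such a GATA, shown whole in capitals. A KLF match is CCACACCC, CCACGCCC, CCCCACCC or CCCCGCCC. An AP1 match is TGANTCA with C or G in the middle, and a RUNX match is TGNGGTN with C or T at each N. CTCF stands for a match to the core of its known consensus. A pair contains a GATA match. In the Cdk5rap3, Prr15l and Sp2 cluster the window is that of the strongest region whose window touches no annotated exon.
Cd24a cluster, chr10:43625708-43625858, + strand: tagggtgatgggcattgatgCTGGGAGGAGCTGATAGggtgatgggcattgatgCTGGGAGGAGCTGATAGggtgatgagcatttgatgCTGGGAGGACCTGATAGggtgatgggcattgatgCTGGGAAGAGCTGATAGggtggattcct
Fig4 cluster, chr10:41189520-41189670, + strand: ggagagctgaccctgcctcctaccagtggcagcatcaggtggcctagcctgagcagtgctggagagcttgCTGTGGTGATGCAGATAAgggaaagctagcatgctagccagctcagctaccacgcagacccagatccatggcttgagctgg
Cdk5rap3, Prr15l and Sp2 cluster, chr11:96917598-96917748, + strand: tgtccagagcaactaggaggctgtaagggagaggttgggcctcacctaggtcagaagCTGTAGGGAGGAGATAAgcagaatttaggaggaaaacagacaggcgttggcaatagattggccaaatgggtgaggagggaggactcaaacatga
Hipk2 and Tbxas1 cluster, chr6:38900225-38900375, + strand: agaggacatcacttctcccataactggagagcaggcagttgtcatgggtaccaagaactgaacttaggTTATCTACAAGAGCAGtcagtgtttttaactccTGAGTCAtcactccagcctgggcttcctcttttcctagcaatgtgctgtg
Pde4d cluster, chr13:109665902-109666052, + strand: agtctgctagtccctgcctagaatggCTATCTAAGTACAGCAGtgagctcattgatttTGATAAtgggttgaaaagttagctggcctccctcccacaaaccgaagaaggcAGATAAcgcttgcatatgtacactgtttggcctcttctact
Zfpm1 cluster, chr8:122294297-122294447, + strand: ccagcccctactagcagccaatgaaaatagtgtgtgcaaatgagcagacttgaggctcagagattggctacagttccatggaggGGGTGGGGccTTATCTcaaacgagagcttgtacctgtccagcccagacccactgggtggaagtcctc
Aqp1, Ghrhr and Mindy4 cluster, chr6:55392538-55392688, + strand: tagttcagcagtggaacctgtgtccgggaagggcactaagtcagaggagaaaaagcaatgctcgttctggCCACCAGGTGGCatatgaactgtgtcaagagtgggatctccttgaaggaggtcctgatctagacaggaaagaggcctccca
Jade2 cluster, chr11:51848037-51848187, + strand: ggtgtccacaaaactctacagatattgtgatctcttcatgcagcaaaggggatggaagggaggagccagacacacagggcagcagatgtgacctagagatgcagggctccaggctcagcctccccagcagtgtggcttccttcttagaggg

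The window of the Cd24a cluster held 4 pairs of CTG and GATA, in a stretch where nearly the same run of bases recurs. Whether the authors kept only uniquely placed reads is not stated in the labels or listing. The windows of the Fig4 cluster and of the cluster with Sp2 each held 1 pair. In the Hipk2 and Tbxas1 window a pair stood on the reverse strand next to an AP1 match. The Pde4d window had 3 GATA matches, 1 of them in a pair. In the Zfpm1 window a KLF match stood beside a GATA match. The Aqp1 window had a CTCF match and no GATA match, and the Jade2 window had no match to any of these sequences. A match is a string of letters and does not show that a factor was bound.

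Most clusters were small. There were 247 clusters of 4 regions, 107 of 5, 51 of 6, 20 of 7 and 17 of 8, and 18 clusters held 9 or more, up to 18. Outside the clusters, 5364 distal regions stood alone, 1409 groups held 2 regions and 518 held 3. At the threshold, the 518 groups of 3 had a median span of 10.1 kb and a median summed fold of 19.8 (8.13 to 35.3). The 247 groups of 4 had a median span of 14.4 kb and a median summed fold of 24.9 (10.6 to 42.4). The ranges of summed fold overlapped widely across the threshold.

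**Figure D1:**
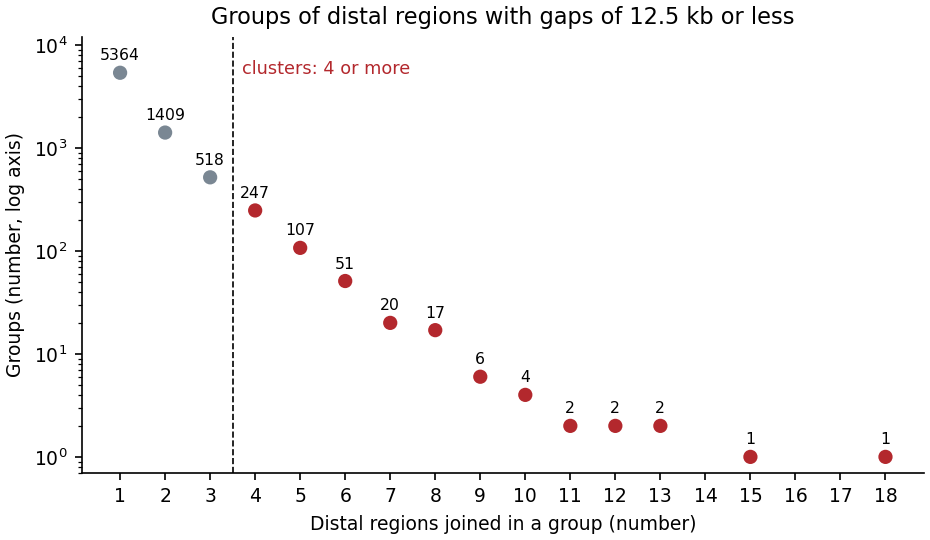
Number of groups (log axis) against the number of distal regions joined in a group, with the count printed above each point. Groups to the right of the dashed line, with 4 or more regions, are the 460 clusters, and the counts fall from 247 groups of 4 to 1 group of 18.

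Clusters spanned a median of 17.8 kb, from 2.01 to 79.0 kb, and 8.91 Mb in all, which is 0.327% of the assembled chromosomes. Accessible sequence filled 13.4% of the span. The 1844 gaps between neighbours had a median of 3.25 kb and reached from 0.042 to 12.5 kb. Many neighbours were very close, since 507 gaps (27.5%) measured 1 kb or less and 18 clusters spanned under 5 kb. Counting regions 1 kb or less apart as 1 site left 276 clusters of 4 or more sites, the largest with 13, an alternative chosen after the data were seen. The number of regions in a cluster is therefore partly a count of neighbouring openings within 1 stretch.

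Within a cluster the regions differed in strength. The highest fold was a median of 1.49 times the cluster's median fold, ranging from 1.01 to 4.0 times. The SD of log2 fold within clusters was 0.56, against 0.58 over all clustered regions, so regions of the same cluster differed nearly as much as regions of different clusters. The strongest region was the first or last of its cluster in 228 of 460 clusters (49.6%), beside a mean of 42.7% of a cluster's regions that are its first or last. Summed fold grew with the number of regions (Spearman's rho 0.70 across 460 clusters), which follows in part from summing. The median fold of a cluster went slightly down with its number of regions (rho -0.13 across the same clusters).

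**Figure D2:**
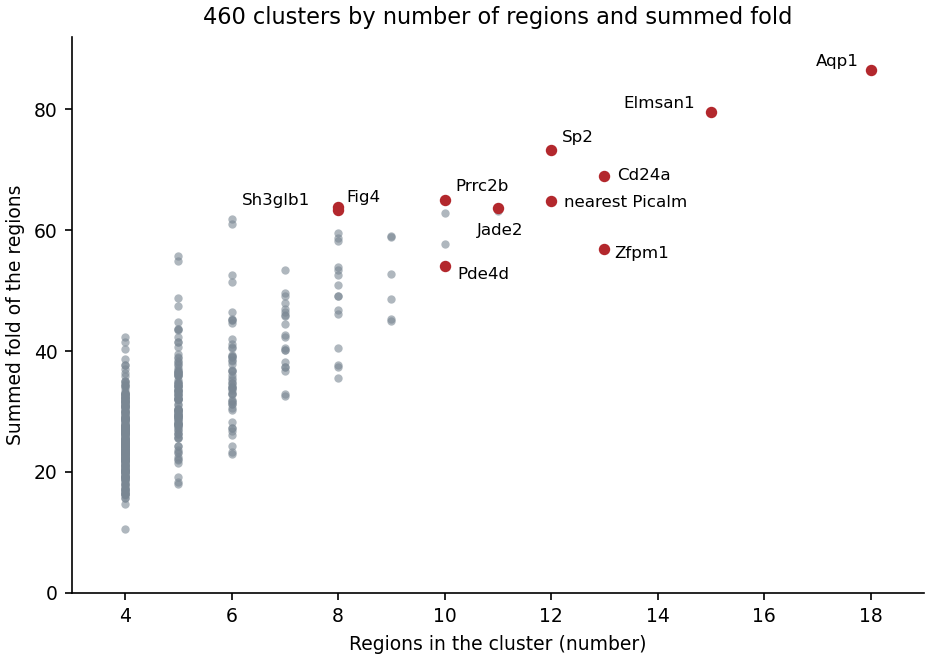
Summed fold of each of the 460 clusters against its number of regions, 1 point per cluster, with leading clusters in red and labelled by 1 gene they hold or, for Picalm, by the nearest gene. The Aqp1 cluster is farthest on both axes with 18 regions and a summed fold of 86.5, while Fig4 and Sh3glb1 reach 63.3 and 63.9 with 8 regions.

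The cluster with the most regions lay at chr6:55313771-55392729 and held Aqp1, which encodes the water channel of the red cell membrane, together with Ghrhr, the receptor for growth hormone-releasing hormone, and the 3' part of Mindy4, a deubiquitinase gene. Its 18 regions had a summed fold of 86.5 and single folds from 2.18 to 7.85, and they counted as 13 sites at 1 kb. The promoter of Mindy4 was accessible with a fold of 13.5 and that of Aqp1 with a fold of 4.31, whereas no promoter region was listed for Ghrhr. GATA matches stood near the summit of 12 of the 18 regions and pairs near 4. The list of replicate 1 contained 13 of these regions and that of replicate 2 contained 12, and 4 were in neither. Those 4 had pooled folds of 2.18, 2.43, 3.18 and 2.99, the lowest in the cluster.

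Elmsan1 had the next largest cluster, 15 regions at chr12:84150821-84222894 with a summed fold of 79.5. The gene encodes a scaffold of a histone deacetylase complex. Of the 15 regions, 13 were intronic, 8 had a GATA match and 4 a KLF match. Replicate 1 listed 9 of them and replicate 2 listed 10. Joined by the same rule, the regions of replicate 1's own list gave no cluster there, while those of replicate 2 did. The strongest, with a pooled fold of 8.61, had 7.91 in replicate 1 and 8.41 in replicate 2.

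Cd24a encodes a small glycosylated surface protein. Its cluster, chr10:43575069-43649457, had 13 regions and a summed fold of 69.0, and ran from before the gene to far beyond its end. None of the regions overlapped Cd24a itself, and 10 were intronic and 1 exonic by other gene models. All of the strongest regions described next lay beyond the end of Cd24a. The strongest 4 regions had folds of 8.40, 8.77, 9.89 and 9.26, and both replicate lists contained them. No other region of the cluster passed a fold of 4.85, replicate 1 listed none of those 9, and replicate 2 listed 3 of them. The region with the 4 printed pairs had the highest fold, 9.89, with 9.78 in replicate 1 and 10.3 in replicate 2.

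Zfpm1 encodes FOG1, the cofactor that GATA1 needs in red cell and megakaryocyte formation. Its cluster, chr8:122273211-122330789, also had 13 regions but a summed fold of 56.8, which ranked 20 among all clusters. In it 4 regions lay upstream of the gene and 9 in its introns. A GATA match stood in 9 regions and a KLF match in 4. Replicate 1 listed 10 regions and replicate 2 listed 9. The strongest intronic region, whose window is printed above, had a fold of 7.26 in the pooled list, 6.85 in replicate 1 and 7.24 in replicate 2.

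At chr11:96910091-96964057 a cluster of 12 regions had a summed fold of 73.2. Genes it held include Cdk5rap3, Prr15l and Sp2, a zinc finger factor related to the KLF family. Promoters were accessible at Sp2 (fold 9.25) and Cdk5rap3 (8.12), and none was listed for Prr15l. Of the 12 regions of this cluster, 11 were in the list of replicate 1 and 10 in that of replicate 2. Another cluster of 12 regions, chr7:90046588-90092051, held no protein-coding gene, and the nearest start, that of the clathrin adaptor gene Picalm, was 60.9 kb from its middle. Its summed fold was 64.8, GATA matches stood in 9 of its regions, and each replicate listed 8.

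**Figure D3:**
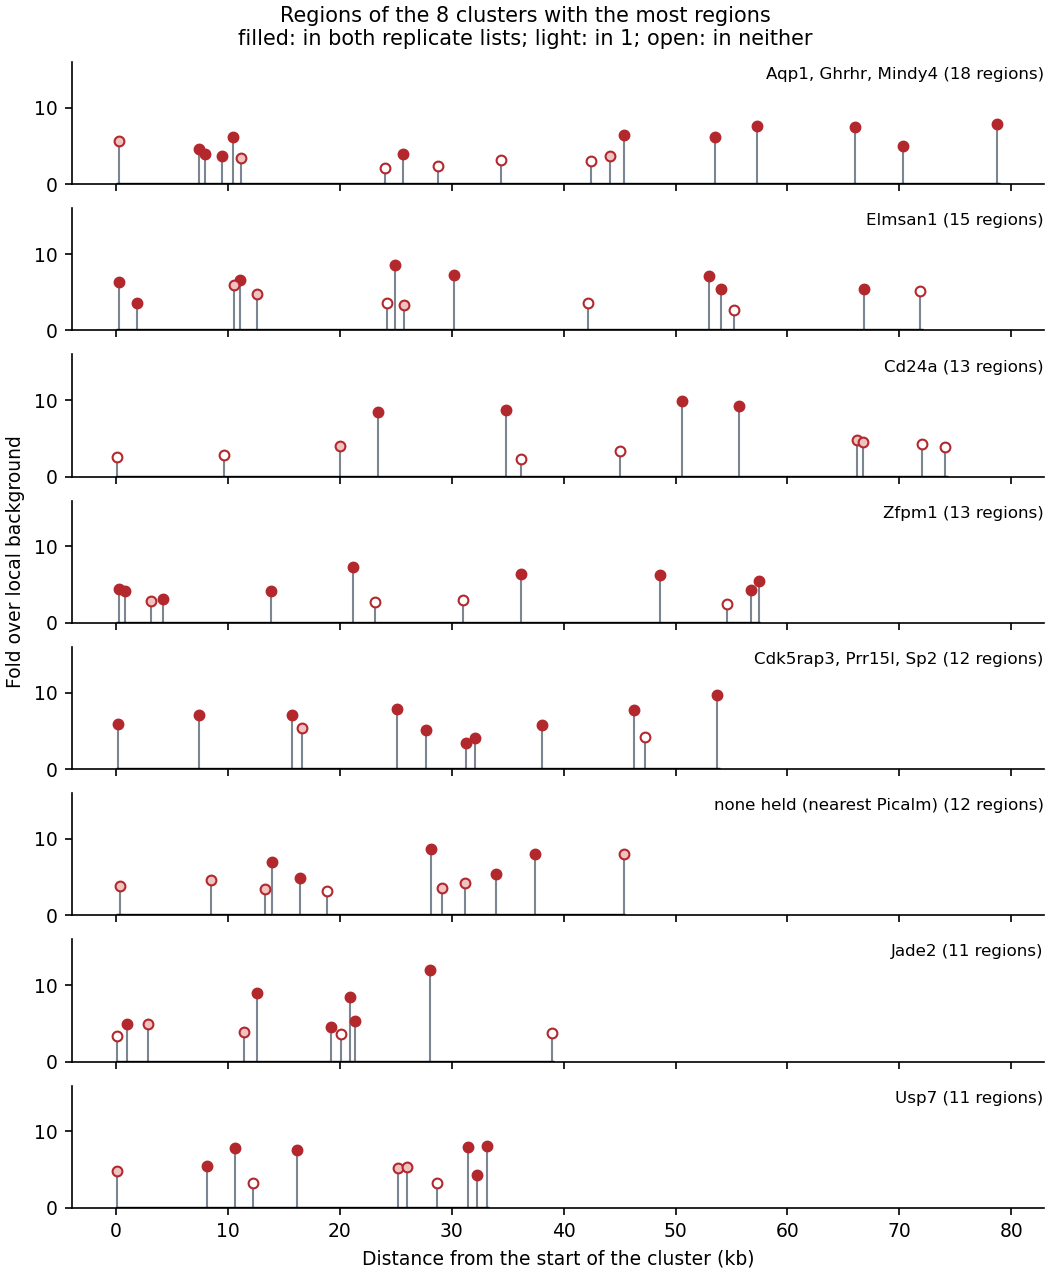
Regions of the 8 clusters with the most regions, drawn by their distance in kb from the start of the cluster. The height of each stem gives the fold over background in the pooled list. The axis calls this background local, which the sources do not state. Filled circles are regions in both replicate lists, light circles in 1 and open circles in neither, and in the Cd24a cluster the 4 tall stems with folds of 8.40 to 9.89 are filled while the others are light or open.

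Clusters of 9 to 11 regions held genes of varied roles. Jade2, a histone acetyltransferase complex subunit gene, had 11 regions with folds from 3.29 to 12.0, which counted as 6 sites at 1 kb. Usp7, which encodes a deubiquitinase that acts on MDM2 and p53, had 11 regions inside the gene, the strongest with a fold of 8.08. Prrc2b had 10 regions, all in replicate 1 and 8 in replicate 2. Btg2, an antiproliferative gene, had 10 regions, none of them in the gene itself, since all were intergenic. Pde4d, a cyclic AMP phosphodiesterase gene, had 10 regions, of which each replicate listed 5, and 9 had a GATA match. The cluster at Hipk2, a nuclear kinase gene, and Tbxas1, the thromboxane synthase gene, had 10 regions, and each replicate listed 8.

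Among clusters of 8 or 9 regions the strongest region stood out to varying degrees. In the Klf13 cluster, at the gene of a KLF factor with a known role in red cell formation, folds ran from 2.77 to 16.1. The next highest fold there was 11.7. The strongest region had 14.01 in replicate 1 and 15.2 in replicate 2. In the Ppp1r9b and Samd14 cluster, the strongest of 9 regions had a fold of 14.4 and the next 7.46. Samd14 is known for promoting Kit signalling in the recovery from anaemia. Fig4, a phosphoinositide phosphatase gene, had 8 regions, with a highest fold of 18.9 in the pooled list, 17.9 in replicate 1 and 17.3 in replicate 2. That region was the highest of the 20 clusters with the most regions, and its printed window held a pair of CTG and GATA. The cluster of Sh3glb1, a gene of autophagy and membrane curvature, was more even, with 5 of 8 folds between 8.26 and 10.7. The remaining clusters of 9 regions were at Tbc1d2b, at Gse1, at Cd82, a tetraspanin gene, and near Bloc1s4, where the cluster held no gene.

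Over the 20 clusters with the most regions, 149 of 215 regions were in the list of replicate 1, 143 in that of replicate 2, 127 in both and 50 in neither. Tbc1d2b and Prrc2b had every region in replicate 1. Cd24a had the lowest share there, 4 of 13. The same rule, applied to each replicate's own list, gave no overlapping cluster at Pde4d or Cd82 in either list. It gave none at Elmsan1 and Cd24a in replicate 1, and none at Klf13 in replicate 2. The highest fold of each cluster was similar in the separate lists, though each list has its own scale.

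**Figure D4:**
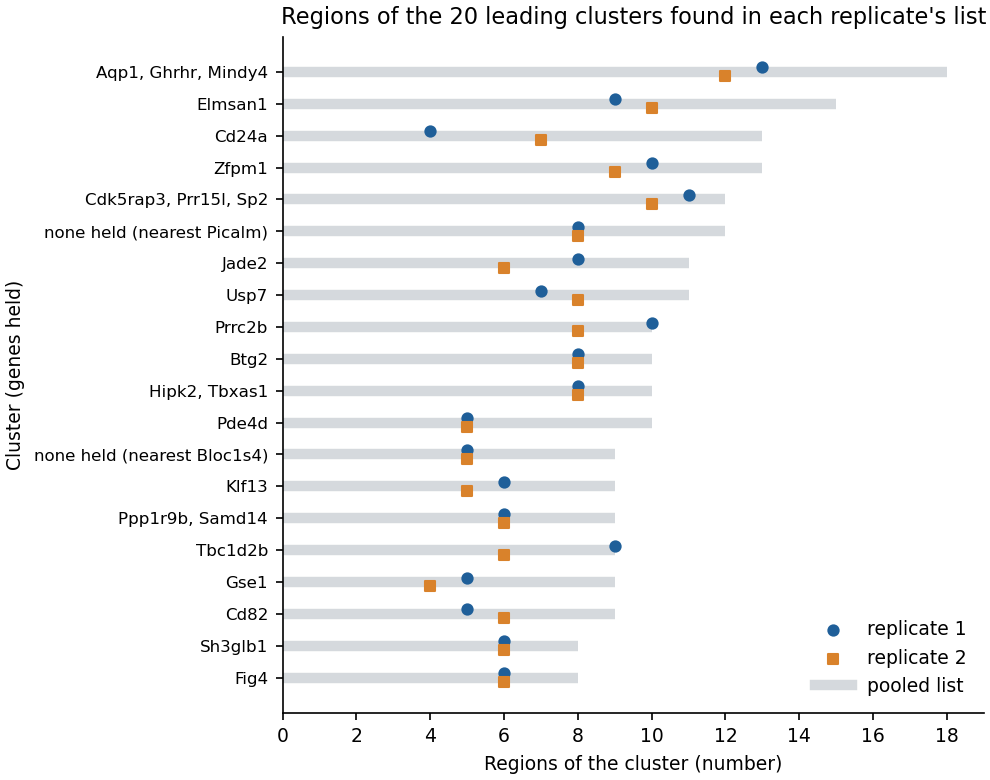
Number of regions of the 20 clusters with the most regions (grey bars, pooled list) that overlap a region in the list of replicate 1 (circles) or replicate 2 (squares) by at least 1 bp. Replicate 1 reaches the end of the bar for Prrc2b and Tbc1d2b, and the points of Cd24a (4 and 7 of 13) lie far inside it.

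Across all clusters, the list of replicate 1 contained 71.1% of the 2304 clustered regions and that of replicate 2 contained 68.5%. Both contained 61.2% (59.1 to 63.1), beside a background of 50.7% over all distal regions and 48.3% (47.3 to 49.3) for distal regions outside clusters. The authors' less strict overlap lists of both replicates contained 89.4% of clustered regions and 87.3% of the others. The replicate lists derive from the same reads as the pooled list, so these shares are no independent test. Every region was in the list of replicate 1 for 108 clusters and in that of replicate 2 for 78.

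Applying the same rule to each replicate's own list gave fewer clusters, 223 with 1053 regions in replicate 1 and 196 with 913 regions in replicate 2. Of the 460 pooled clusters, 209 overlapped a cluster of replicate 1, 184 a cluster of replicate 2 and 151 one of each, while 218 overlapped none. In the other direction, 94.6% of the clusters of replicate 1 and 94.9% of those of replicate 2 overlapped a pooled cluster. The replicate lists had 7807 and 7208 distal regions, against 12040 in the pooled list. The log2 ratio of -log10 p had an interquartile range of 0.59 between the 2 libraries. Between the authors' pseudoreplicates, random splits of the reads, it was 0.79. The median ratio was 0.12 for the libraries and 0 for the pseudoreplicates. Read depth is unknown, so these values cannot show how far the libraries differ beyond read sampling. The libraries carry a single donor identifier and were counted as 1 sample, and no spread between samples is given.

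Clustered regions had lower folds and higher -log10 p values than the rest. Their median fold was 5.72, against 6.65 for the other distal regions, and it fell with group size, from 6.88 for single regions and 6.36 in groups of 2 or 3 to 5.98 in clusters of 4 or 5 and 5.27 in clusters of 6 or more. Their median -log10 p was 45.2, against 34.4. The same opposite directions were seen in each replicate's own list. In replicate 1 the median fold was 6.11 for clustered and 7.46 for other distal regions, with a median -log10 p of 33.7 and 29.2. In replicate 2 the folds were 6.24 and 7.40 and the -log10 p values 33.4 and 28.5. Why fold and -log10 p ran in opposite directions was not tested. The median width was 441 bp in both classes, and the median GC content around the summit was 51.7% and 50.7%.

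By position the classes differed little. Introns held 53.3% of clustered and 53.3% of other distal regions, intergenic sequence 40.3% and 39.2%, and exons 6.47% and 7.49%. The median distance to the nearest transcript start was 7.57 kb for clustered regions and 6.81 kb for the others.

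The sequence around the summit was not used to choose the clusters. Within 100 bp of it, a GATA match stood in 55.1% of clustered regions (53.1 to 57.1), beside 49.8% of all distal regions and 48.6% (47.6 to 49.5) of those outside clusters. Most of this gap lay between single regions and all groups, since the share was 44.9% in single regions, 53.1% in groups of 2 or 3, 54.1% in clusters of 4 or 5 and 57.1% in clusters of 6 or more. The intervals of groups of 2 or 3 (51.6 to 54.5) and of clusters of 4 or 5 (51.6 to 56.6) overlapped. Pairs of CTG and GATA were in 16.6% of clustered regions (15.2 to 18.2) and 15.6% (14.9 to 16.3) of the others, with overlapping intervals. KLF matches were in 22.7% (21.1 to 24.5) and 18.1% (17.3 to 18.9). In the replicates' own lists the KLF shares were 23.6% and 20.6% for replicate 1, and 24.1% and 20.9% for replicate 2. The intervals overlapped in each of these lists. At or above the median -log10 p the KLF shares were 24.4% (22.2 to 26.7) and 22.3% (21.1 to 23.5), with overlapping intervals. Below the median they were 20.2% (17.7 to 22.9) and 14.3% (13.4 to 15.3). AP1 matches (7.38% and 7.24%) and RUNX matches (10.7% and 11.0%) had overlapping intervals as well.

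Of the 8 consensus sequences searched, CTCF showed the widest gap in relative terms. They stood in 5.64% of clustered regions (4.77 to 6.66) and in 13.0% (12.4 to 13.7) of the others. The share was 15.9% in single regions, 9.49% in groups of 2 or 3, 6.30% in clusters of 4 or 5 and 4.35% in clusters of 6 or more. Among regions without a CTCF match, GATA shares were 57.4% (55.3 to 59.5) in clusters and 52.6% (51.5 to 53.7) outside. In the replicates' own lists, CTCF shares were 4.37% in clusters and 9.43% outside for replicate 1, and 4.71% and 8.82% for replicate 2. GATA shares there were 59.5% and 54.5% for replicate 1, and 58.4% and 55.1% for replicate 2, where the intervals overlapped (55.2 to 61.5 and 53.9 to 56.3). The lists share reads, and a region's -log10 p moved with these shares. In regions at or above the median -log10 p, CTCF shares were 4.58% in clusters and 7.92% outside, and below the median 7.28% and 17.6%.

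**Figure D5:**
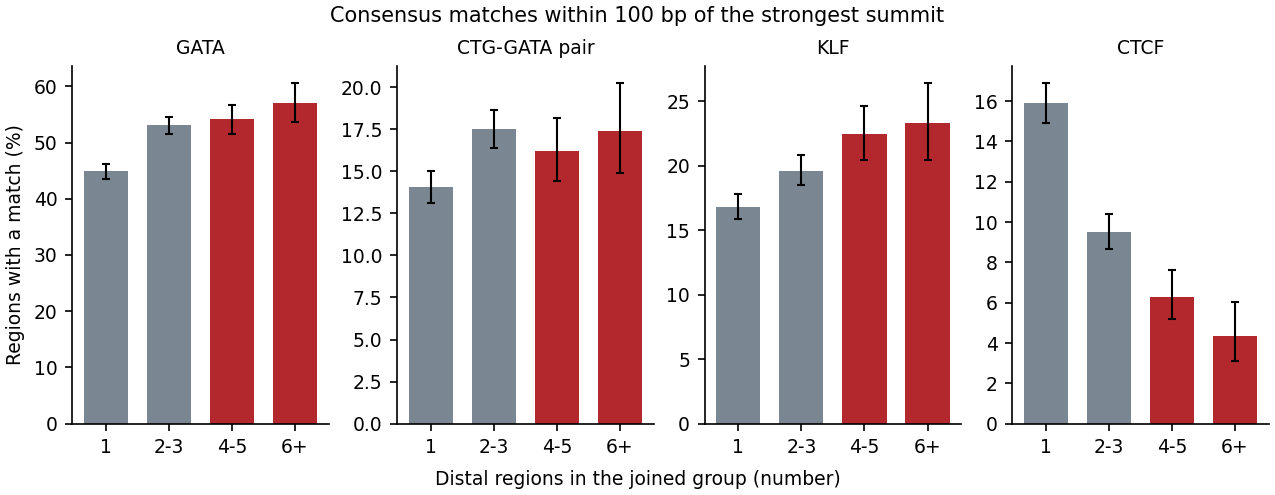
Percent of distal regions with a match to GATA, a CTG and GATA pair, KLF or CTCF within 100 bp of the summit, for groups of 1, 2 to 3, 4 to 5 and 6 or more regions (clusters in red), with 95% Wilson intervals that cover counting error over regions only. CTCF falls from 15.9% to 4.35% from left to right, while GATA rises from 44.9% to 57.1% and pairs stay between 14.04% and 17.5%.

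CTCF matches also differed between the ends and the inside of clusters. They stood in 8.26% of first and last regions (6.65 to 10.2) and in 3.90% (3.00 to 5.06) of inner regions. GATA matches ran the other way, with 51.3% (48.1 to 54.5) at the ends and 57.7% (55.0 to 60.2) inside. Ends are a larger part of small clusters. In clusters of 4 or 5 regions the CTCF share was 6.30% and the GATA share 54.1%, against 4.35% and 57.1% in larger ones. By the rule, an end region also has a gap over 12.5 kb on its outer side. The part of cluster size and of this gap in the differences was not tested. The strongest region of each cluster had a GATA match in 61.7% (57.2 to 66.1), a pair in 115 of 460 (21.3 to 29.2%) and a KLF match in 27.6% (23.7 to 31.9). In the other clustered regions these shares were 53.5%, 14.5% and 21.5%. Counted by cluster, 441 of 460 had at least 1 region with a GATA match and 376 had at least 2, while 268 had a pair, 307 a KLF match and 115 a CTCF match.

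Genes held by clusters mostly had open promoters. The spans of 320 clusters overlapped a protein-coding gene, 256 of them 1 gene, 50 of them 2 and 14 of them 3 or more, and 161 clusters lay wholly inside a gene. The other 140 held none. Of the 393 genes held, 324 had an accessible promoter, meaning a region within 1 kb of a start that is no member of a cluster (82.4%, 78.4 to 85.9), against a background of 45.6% over all 21937 protein-coding genes. The median fold of these promoters was 7.75, below the 10.7 of accessible promoters over all genes. Held genes were long, with a median of 39.6 kb against 17.4 kb, and the part of length in these shares was not tested. Gse1 held 4 clusters with 23 regions over 353 kb, and Mboat2, Bcl11a, Gramd4, Inpp5d, Ldlrad4 and Vmp1 held 2 clusters each.

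Genes of red cell formation were looked up in lists compiled with earlier results of these data known. A gene counted as tied to a cluster when the cluster overlapped its body or lay within 50 kb of a start, which held for 5.63% of all protein-coding genes. Over 6 lists of erythroid genes, 32 of 110 genes were tied to a cluster. Over 9 lists of other cell types, 6 of 103 were tied, a share near the background. The 32 erythroid genes were tied to 31 clusters, and the beta-globin genes shared 1 of these. Without replicate 1 the share of all genes tied was 2.36%, and without replicate 2 it was 2.76%.

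Of 34 erythroid transcription regulators, 10 were tied to a cluster (29.4%). Without replicate 1 the share was 14.7%, and without replicate 2 it was 20.6%. Besides Zfpm1 and Klf13, they were Tal1, the partner of GATA1 at paired sites, with 5 regions 26.1 kb from its start around Pdzk1ip1, and Gfi1b, a repressor needed for red cell and platelet formation, with 4 regions 12.7 kb away. Bcl11a, the repressor of fetal globin genes, held 2 clusters of 5 and 4 regions, of which replicate 1 listed only 1 and 3. E2f2, a cell cycle regulator of late erythroblasts, had 8 regions with folds up to 11.7. E2f4, Mafk, Tcf3 and Foxo3 had clusters of 4 to 6 regions, and a further cluster of 4 regions lay 40.5 kb from the Mafk start.

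Of 28 membrane and surface genes, 11 were tied (39.3%), with 17.9% without replicate 1 and 14.3% without replicate 2. Apart from Aqp1 and Cd24a, Epb41, which encodes protein 4.1 of the membrane skeleton, had 6 regions with a highest fold of 11.6. Gypc, the glycophorin C gene, had 5 regions in its introns, all in both replicate lists. Slc4a1, the anion exchanger gene, had 4 regions 6.80 kb from its start, and Rhd had 4. The cluster tied to the transferrin receptor gene Tfrc held 6 regions in and beside Tnk2, 39.7 kb from the Tfrc start. Ano6, Cd47, Icam4 and Cd36 were tied to 4 or 5 regions each, and no promoter region was listed for Cd36. The clusters tied to Cd47 and Icam4 did not overlap these genes and lay 23.0 and 1.27 kb from their starts.

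In erythropoietin signalling, 3 of 15 genes were tied, and all 3 are targets of STAT5. Cish, a feedback inhibitor, had 5 regions 5.31 kb from its start. Pim1, a survival kinase gene, was tied to 5 regions 7.43 kb from its start and 4 regions 43.0 kb from it. Neither cluster overlapped the gene. Bcl2l1, which encodes the survival protein BCL-XL, had 5 regions in the gene. In haem synthesis, 2 of 13 genes were tied (15.4%, 4.33 to 42.2), an interval that includes the 5.63% over all protein-coding genes. The share was 7.69% without replicate 1 and also without replicate 2. Slc25a37, the mitochondrial iron importer gene, had 6 regions 19.3 kb away, next to Synb, with 6 in replicate 1 and 5 in replicate 2. A cluster with nearly the same values lay farther along chromosome 14, at chr14:69522679-69544326 near Gm27179. It also had 6 regions, spanned 21.6 kb as the first did, and had a summed fold of 34.27 against 33.96 and a GATA match in 4 regions like the first. Whether reads could be told apart between these places was not tested. Abcb10 had 4 regions. Among 12 iron genes Tfrc and Ncoa4, the ferritin receptor gene of autophagy, were tied (16.7%, 4.70 to 44.8). That interval includes the share over all genes as well.

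All 5 genes of the beta-globin locus were tied to 1 cluster of 5 intergenic regions at chr7:103858915-103877653, which lies 5.70 kb from the start of the embryonic gene Hbb-y and 30.8 kb from that of the adult gene Hbb-bs. The folds were 8.01, 5.39, 6.59, 8.14 and 7.70, both replicate lists contained all 5 regions, and GATA matches stood in 4 and pairs in 3. Of the other 5 globin genes listed, none was tied to a cluster.

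Among the lists of other cell types, the tied genes were Vwf, Elane, Prtn3, Msi2, Klrb1c and Col1a1. Elane and Prtn3 shared 1 cluster at Arid3a, R3hdm4 and Kiss1r, and Col1a1 was tied through the Ppp1r9b and Samd14 cluster, 33.3 kb away. No B cell, mast cell, hepatocyte or neuron gene of the lists was tied. At promoters, 8 of 8 markers of erythroid progenitors were accessible, among them Gata1, Klf1 and Epor, and 0 of 10 markers of other cells were. Those 10 do not stand for all genes of other cell types. Of the tied genes named above, Vwf (fold 4.28), Prtn3 (4.12), Msi2 (6.54) and Col1a1 (8.71) had accessible promoters. None was listed for Elane or Klrb1c.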

How the data were processed

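ATAC-seq peak lists of 2 CFU-E libraries were analysed. The members and the gene lists were chosen with earlier results of these data known. The authors' lists, on mm10 per the file listing, hold peaks of each replicate or of the pooled reads, thresholded on IDR, the irreproducible discovery rate (lowest score 540 in the pooled list). Deposited values are the authors' score, the fold (a ratio over background), the −log10 p and the summit of each peak. The sources used here do not give the aligner, peak caller, kind of background, Tn5 offset or duplicate handling. Read depth is unknown from peak lists, so Wilson intervals cover counting error over regions only.

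Touching records were merged, keeping the strongest record's values. Starts and genes came from GENCODE M21, without 1 read-through model over 3 Mb, and sequence from GRCm38.p6. Consensus matches were sought on both strands within 100 bp of the summit. Of 17 gene lists (243 genes), those of cell cycle and organelle clearance had 4 of 20 and 2 of 11 genes tied to a cluster. Named are the 20 clusters with most regions, the 10 with the highest summed fold and those tied to listed erythroid genes. Since the design holds 1 group, no test was run. Scripts used Python 3.11.15, numpy 2.4.6 and scipy 1.17.1 and were tested on simulated data.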

Additional observations from a re-analysis of the deposited data

How the results depend on the processing

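The clusters depended on the joining rule. Gaps of 5 kb gave 159 clusters with 5.78% of distal regions, at most 7 regions and a median span of 7.41 kb. Gaps of 10 kb gave 15.02% of distal regions, and gaps of 25 kb gave 767 clusters, 36.2% and 35.4 kb. Asking for 3 regions gave 978 clusters (32.0%), and asking for 6 gave 106 (6.49%, median span 28.7 kb). Distances of 500 bp and 2 kb from starts gave 21.7% and 16.4%, starts of protein-coding genes alone 20.8%, and letting promoter regions join 21.9%. The overlap list gave 1176 clusters (24.8%), and the upper 50% of regions by fold 11 clusters (1.07%) of at most 5 regions. Counting regions 1 kb or less apart as 1 site, chosen after seeing the data, gave 276 clusters with 12.2% of sites.

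Leaving out a library gave 196 to 223 clusters, 12.7 to 13.5% of distal regions, a largest cluster of 10 to 11, and GATA, pair and CTCF shares of 58.4 to 59.5%, 19.1 to 19.7% and 4.37 to 4.71%. The share of regulators with a cluster was then 14.7 to 20.6%, of membrane genes 14.3 to 17.9% and of all genes 2.36 to 2.76%. Within 50 bp of the summit, GATA, pair and KLF shares were 44.4%, 12.8% and 17.7%, and over whole regions 66.6%, 20.7% and 32.0%. With clusters of 3 regions, 64.7% of regulators and 10.7% of all genes had one, and tying only the nearest gene gave 2.05% of all genes. Ranking by summed −log10 p kept 6 of the top 10, and overlap over 50% of the length left 65.8% in replicate 2. The cause was not tested. Of 108 alternatives computed, 56 stayed within their limits and 52 moved past them. No paired analysis was possible because the libraries form 1 group.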

Other observations

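The middles of 46 clusters lay over 50 kb from every protein-coding start. The 3 described here were picked out after their values were seen, for nearest genes known in blood cells, and they do not stand for the 46, whose other nearest genes include Camta1, Pik3r1, Nhs and Serbp1. A cluster of 7 intergenic regions at chr5:64566754-64591406 lay 224 kb from the start of Klf3, a repressor of the KLF family, with a highest fold of 12.6, GATA matches in 6 regions and 5 regions in each replicate list. Another of 7 regions at chr16:93123738-93154237 lay 313 kb from the nearest start, that of Runx1, a regulator of blood stem cells, with 5 regions in replicate 1 and 4 in replicate 2, and the same rule found an overlapping cluster in the list of replicate 1 and the conservative list but not in that of replicate 2. The cluster at chr2:103865736-103897184 lay 76.5 kb from Lmo2, which encodes the bridging protein of the complex of TAL1 and GATA1, and had 6 regions with a highest fold of 10.9, of which replicate 1 listed 5 and replicate 2 listed 4. The same rule found no cluster there in either replicate list or in the conservative list. Which gene such a cluster serves was not tested.

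Clusters were unevenly spread over the chromosomes. Chromosome 11 had 43, or 35.2 per 100 Mb, the highest density. It also had the most distal regions, 1042, and 21.3% of them were in clusters, near the 19.1% over all chromosomes. Among autosomes this share was highest on chromosome 8, at 26.3%. Chromosome 16 had 8, or 8.15 per 100 Mb, the lowest among autosomes, with 13.8% of its 340 distal regions in clusters. Chromosome X had 6, or 3.51 per 100 Mb, with 10.6% of its 255 distal regions in clusters, and chromosome Y had 1 cluster holding 5 of its 11 distal regions.

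The authors' less strict overlap list had 2524 distal regions within the spans of the 460 clusters, which hold 2304 of the pooled list, and it had more regions than the pooled list in 162 of them.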
